A study of Mus musculus with 4 samples.

Results

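The genes described here are 44 genes that copy DNA at the replication fork, package the new DNA into chromatin and supply its nucleotides. They were taken by name from a fixed list of the origin recognition complex, origin firing factors, replicative polymerases, the sliding clamp and its loader, replication protein A, Okazaki fragment enzymes, fork protection factors, chromatin assembly factor 1 (CAF-1) and enzymes of deoxynucleotide (dNTP) supply. All 44 were among the 20065 mouse genes of the table, and all 44 passed the filter on low counts that 16156 genes passed. RNA-seq had been made from cultured satellite cells, the muscle stem cells (MuSC), of adult limb and trunk muscle on a C57BL/6 background, with 2 libraries of control cells and 2 of Prmt5sKO cells. Control cells were Pax7CreERT2/Prmt5+/loxP (+TAM). Labelled wild type, they therefore carried the Cre allele and 1 floxed Prmt5 allele and were exposed to the inducer as well. Prmt5sKO cells were Pax7CreERT2/Prmt5loxP/loxP (+TAM). In both, tamoxifen activates a Cre recombinase made only in Pax7-expressing cells, and the study's methods describe this treatment on cells in culture. The question was how loss of Prmt5, an enzyme that methylates arginines in histones and other proteins, changed the transcripts of these cells.

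Replication starts where the origin recognition complex marks the DNA and loads the MCM helicase. The kinase Cdc7 with Dbf4, together with Cdc45 and the GINS complex, turns that helicase on. DNA polymerase alpha-primase then lays down primers, which polymerase epsilon extends on the leading strand and polymerase delta on the lagging strand, both held by the ring-shaped clamp Pcna. Most of these genes are known as targets of E2F factors, which switch them on as a cell enters S phase, and satellite cells that leave quiescence pass through this switch before they multiply. In bulk RNA, fewer cells in S phase and less RNA per cell cannot be told apart.

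The control libraries held 14436914 and 13240754 counted reads, and the Prmt5sKO libraries 20047430 and 16190414. No replicate number is given in the table, and each group's libraries are called deeper and shallower. Values below are normalized read counts, that is reads scaled for depth by trimmed means of M-values (TMM), and sets of 4 values are in the order deeper control, shallower control, deeper Prmt5sKO, shallower Prmt5sKO. Prmt5 had 2209, 2866, 240 and 196, so both Prmt5sKO libraries lay far below both control libraries, as the labels state. Cdkn1a, which encodes the cell cycle inhibitor p21, had 3285, 2029, 8212 and 15264. The 8 markers of myogenic precursors, Pax7 and Myod1 among them, summed to between 44405 and 51502 in control and between 45444 and 74457 in Prmt5sKO. The 7 fibroblast markers summed to 6146 to 13162 in control and 14045 to 16371 in Prmt5sKO, nearly all of it Col3a1, and Lum was at 0 in 3 libraries. The 4 endothelial markers found, of which 3 were tested, summed to 121 and 161 in control and to 88.8 and 54.7 in Prmt5sKO. The 2 haematopoietic ones summed to between 10.9 and 48.9 over all libraries. Cdh5, too low to be tested, and Itgam were at 0 in 1 library each. The part of these cell types in the results was not tested.

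Most of the genes were lower together, so the sequence of their promoters is given first. RefSeq (GRCm38.p6) gave 45 windows for 37 of the 44 genes, each running from 250 bases before a transcription start to 50 after it. Gins1, Gins2, Gins4, Pole, Prim2, Rfc2 and Tipin had no entry. The E2F-type motif was searched on both strands as TTCCCGC, as its variant TTCGCGC, as the variant with a G pair TTGGCGC and as the remaining variant TTGCCGC. It was in 25 of the 45 windows (55.6%), against 9.57% of 32851 windows of all genes. The windows of these genes were rich in G and C, with a median of 63.0% against 52.7%. Among windows of at least 60% GC the shares were 17 of 27 (63.0%) against 19.9% of 9690. A CCAAT box, searched as CCAAT, was in 44.4% of their windows and 37.4% of all, and the cell cycle element CHR, searched as TTTGAA, in 15.6% and 17.9%. Both were searched on both strands too, and a CCAAT box that shared bases with TTGGCGC on the other strand was counted as well. At 60% GC or more, a CCAAT box was in 37.0% of the windows of these genes and 31.6% of all. A CHR was in 14.8% (4 of 27) and 5.79%. The following stretches are the 250 bases before the start, 5′ to 3′ on the gene's own strand, with E2F-type matches in capitals. They were chosen to set origin genes with opposite differences side by side (Orc1 and Orc3), to show CAF-1, a fork factor and a primase gene (Chaf1a, Wdhd1, Pola1), and to show the clamp gene without a match (Pcna).
Orc1, chr4:108579204-108579453, plus strand: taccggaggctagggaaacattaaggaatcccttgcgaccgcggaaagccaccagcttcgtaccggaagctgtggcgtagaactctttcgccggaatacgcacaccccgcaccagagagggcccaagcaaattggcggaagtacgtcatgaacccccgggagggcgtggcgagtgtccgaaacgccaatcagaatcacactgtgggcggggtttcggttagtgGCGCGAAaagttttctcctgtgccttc
Orc3, chr4:34614943-34615192, minus strand: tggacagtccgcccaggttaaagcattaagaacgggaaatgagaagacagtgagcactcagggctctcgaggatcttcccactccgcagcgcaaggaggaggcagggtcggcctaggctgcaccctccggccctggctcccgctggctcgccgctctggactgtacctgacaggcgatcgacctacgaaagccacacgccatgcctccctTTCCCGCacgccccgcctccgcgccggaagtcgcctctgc
Chaf1a, chr17:56040166-56040415, plus strand: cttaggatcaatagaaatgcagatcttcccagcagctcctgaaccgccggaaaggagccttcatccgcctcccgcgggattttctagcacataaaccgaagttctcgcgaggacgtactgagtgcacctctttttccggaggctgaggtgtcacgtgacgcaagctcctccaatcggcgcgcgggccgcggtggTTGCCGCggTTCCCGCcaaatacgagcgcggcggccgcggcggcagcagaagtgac
Wdhd1, chr14:47276858-47277107, minus strand: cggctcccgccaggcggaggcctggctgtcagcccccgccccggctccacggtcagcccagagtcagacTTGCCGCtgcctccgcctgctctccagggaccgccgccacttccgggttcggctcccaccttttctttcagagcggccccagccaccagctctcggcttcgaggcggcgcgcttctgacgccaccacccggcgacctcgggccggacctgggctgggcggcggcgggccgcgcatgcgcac
Pola1, chrX:93632156-93632405, minus strand: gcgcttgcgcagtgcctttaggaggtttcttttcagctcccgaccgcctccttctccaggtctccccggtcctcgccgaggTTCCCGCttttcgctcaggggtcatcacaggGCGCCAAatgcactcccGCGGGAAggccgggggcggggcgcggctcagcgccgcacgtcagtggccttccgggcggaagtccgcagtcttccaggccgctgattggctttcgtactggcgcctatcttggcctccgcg
Pcna, chr2:132253181-132253430, minus strand: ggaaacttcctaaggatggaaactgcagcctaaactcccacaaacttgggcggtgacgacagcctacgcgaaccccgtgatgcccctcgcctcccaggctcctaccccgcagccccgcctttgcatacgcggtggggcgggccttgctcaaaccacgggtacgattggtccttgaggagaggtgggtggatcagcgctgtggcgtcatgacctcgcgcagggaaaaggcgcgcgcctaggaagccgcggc

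In Orc1 the match began 27 bases before the start, at -27, and in Orc3 it began at -40. Chaf1a had a pair of matches at -56 and -47. Wdhd1 had its upstream match at -181, and Pola1 had matches at -169, -138 and -121. A match in these letters is a description of the sequence, and whether a factor binds there was not measured. The 23 genes with a match in some window had a median log2 fold change, Prmt5sKO over control, of -0.99 (range -1.95 to 0.93), and the 14 genes with a window but no match had -1.09 (range -1.52 to 0.09). Both Prmt5sKO libraries were below both control libraries for 21 of the 23 and for 11 of the 14, beside 23.7% of all genes tested. The difference between these sets was not tested. Wdhd1, Chaf1a, Chaf1b, Clspn and Pold1 had matches, as did Orc3 and Orc4. Timeless, Tk1 and Cdc45 had none, nor had Orc2, Orc5 and Pcna. The only window of Timeless, from 128237816 to 128238115 on chromosome 10, lies inside the gene, which starts at 128232065 in GENCODE. That of Dut, from 125247265 to 125247564 on chromosome 2, also lies inside its gene, which starts at 125247190. The bases before these starts were not searched. In the set without a match, Timeless is the gene at -1.52, and Dut had -1.23.

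**Figure D1:**
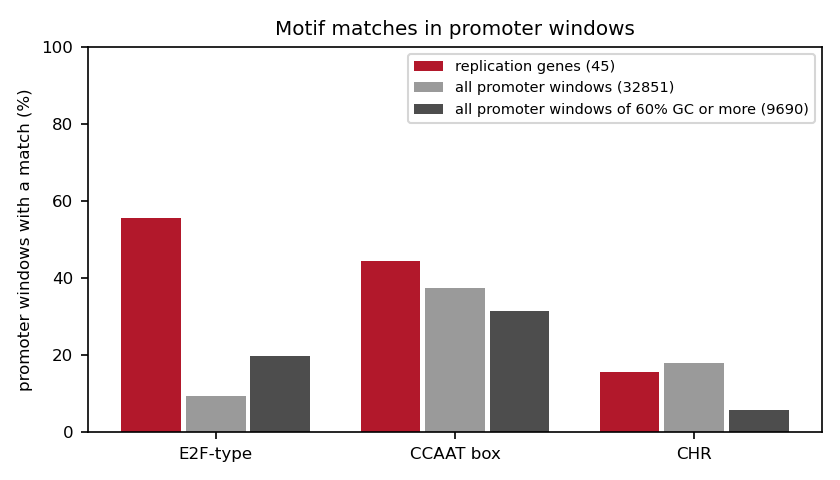
Share of promoter windows (%, vertical axis) with an E2F-type motif, a CCAAT box or a CHR element, for the 45 windows of the replication genes, all 32851 windows, and the 9690 windows of at least 60% GC. The E2F-type bar of the replication genes stands at 55.6%, against 9.57% and 19.9%.

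Transcripts of most replication genes were lower in Prmt5sKO cells. For 39 of the 44 genes both Prmt5sKO libraries lay below both control libraries, an order found in 23.7% of all genes tested. Both lay above for Orc3 and Orc4 only, an order found in 25.2% of all genes, and the groups overlapped for Orc2, Orc5 and Pcna. The median log2 fold change over the 44 genes was -1.0, beside 0.02 over all genes, with the middle of the list between -1.35 and -0.82 and the extremes at -1.95 (Wdhd1) and 0.93 (Orc4). At least 2-fold lower were 22 of the 44, beside 9.04% of all genes. For 18 genes each Prmt5sKO library was under 50% of the control mean, and the share of all genes with that pattern was not computed. In the limma-voom fit across all genes, 35 of the 44 were lower at an unadjusted p under 0.05, beside 6.88% of all genes, and 0 were higher, beside 6.07%.

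After Benjamini-Hochberg adjustment over all genes no call was left. Neither among the 44 genes nor among all 16156 did any pass an adjusted p of 0.05 with a fold change of 2 (0% of all genes), and the smallest adjusted p in limma-voom was 0.194 among the 44 genes and 0.185 over all genes. With 2 libraries a group, an exact two-sided permutation test of 1 gene cannot give a p below 0.333. The sources do not say that the libraries of a group came from separate animals or cultures, so the p-values measure only the spread between these libraries.

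**Figure D2:**
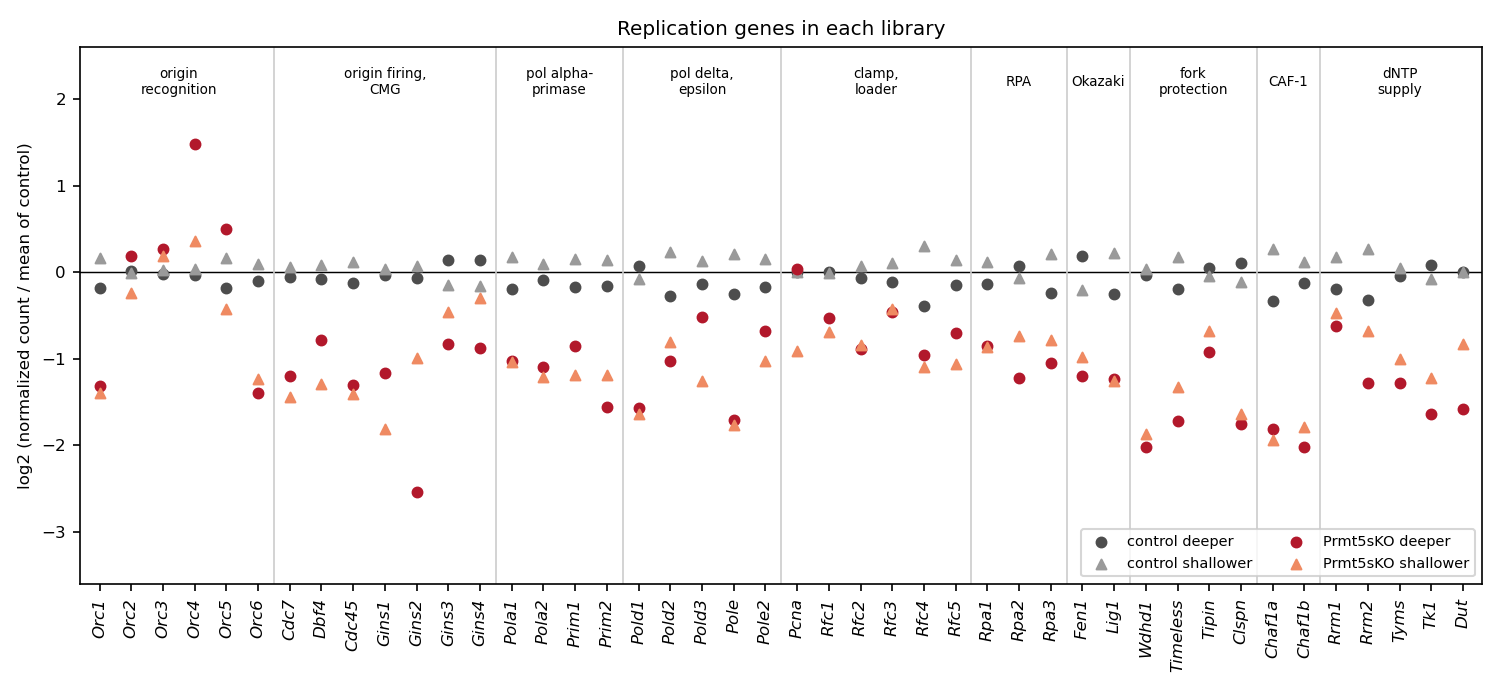
Log2 of the normalized count over the control mean (vertical axis) for the 44 replication genes (horizontal axis, grouped by role) in each of the 4 libraries; grey symbols are control, red and orange are Prmt5sKO, and circles mark the deeper library of a group. In 39 genes both Prmt5sKO symbols lie below both control symbols, and the exceptions are Orc2, Orc3, Orc4, Orc5 and Pcna.

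The origin recognition complex did not behave as a block. Orc1, the ATPase subunit that in mammals is made and destroyed with the cell cycle, had 268, 339, 122 and 115 (log2 fold change -1.33 ± 0.32, SE). Orc6, the small subunit needed to load the helicase, had 637, 727, 258 and 290 (-1.32 ± 0.25). Both were at about 40% of control, 39.0% for Orc1 and 40.2% for Orc6, with no overlap between the groups.

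The remaining subunits form the core of the ring. Orc4 had 515, 540, 1475 and 676 (0.93 ± 0.41, limma-voom adjusted p 0.397). Its difference rested largely on the deeper Prmt5sKO library, without which the log2 fold change was 0.36. Orc3 had 845, 876, 1037 and 982 (0.23), so the libraries of each group stood close together and the higher level in Prmt5sKO was small. Orc2 had 973, 955, 1093 and 817, with the Prmt5sKO libraries on either side of control. Orc5 had 299, 380, 479 and 253 and overlapped in the same way. Exons of Orc2 share 1150 bases with Nif3l1 on the opposite strand, and exons of Orc4 share 582 bases with Acvr2a and Mbd5, also on the opposite strand. Whether counting used strand is not given in the sources used here. The authors left out reads with several genes, so without strand the reads in shared bases would be missing from these counts.

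All 7 origin firing genes were lower in both Prmt5sKO libraries (median log2 fold change -1.31), beside 23.7% of all genes tested. Gins2, a GINS subunit, was the lowest of them with 388, 428, 69.9 and 204 (-1.85 ± 0.49). It also had the widest gap between the Prmt5sKO libraries, with the deeper one far below the shallower one, and without the deeper one its log2 fold change was -0.99. Its exons share 2758 bases with Gse1. Gins4, another GINS subunit, had 557, 452, 274 and 411 (-0.61 ± 0.30) and was the nearest of the group to control. The activating kinase Cdc7 had 504, 546, 229 and 193 (-1.31), and its partner Dbf4 1363, 1529, 838 and 589 (-1.03). Cdc45, the helicase co-factor, had 822, 973, 363 and 337 (-1.35). For these last 3 genes the gap between the groups was wider than the gap between libraries of a group.

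The 4 subunits of polymerase alpha-primase, which makes the RNA-DNA primers, had log2 fold changes close to each other, from -1.38 to -1.0. Prim2, the large primase subunit, had 461, 567, 175 and 226 (-1.38 ± 0.29). Prim1, the catalytic primase subunit, had 731, 912, 454 and 361 (-1.0 ± 0.25). Pola1, the polymerase subunit whose promoter is printed above, had 1074, 1392, 607 and 602, with nearly equal Prmt5sKO libraries. Groups did not overlap in any of the 4, and both Prmt5sKO libraries lay below control, as for 23.7% of all genes tested.

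Among the elongating polymerases the catalytic subunits were lowest. Pole, the catalytic subunit of polymerase epsilon, had 2161, 2985, 787 and 755 (-1.72 ± 0.24, limma-voom adjusted p 0.194), and Pold1, that of polymerase delta, had 1491, 1343, 479 and 457 (-1.60). The accessory subunits Pold2, Pold3 and Pole2 lay between -0.90 and -0.82, with Pole2 at 266, 331, 186 and 147 (-0.82 ± 0.31). Both catalytic subunits were thus near 30% to 33% of control (30.0% for Pole and 33.0% for Pold1), and the 3 accessory subunits between 53.1% and 55.7%.

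The sliding clamp and its loader differed least after the origin core. Pcna, the ring that tethers polymerases, had 2520, 2520, 2592 and 1338 (-0.44 ± 0.33, limma-voom adjusted p 0.588). The deeper Prmt5sKO library was level with control and the shallower one was at 53.1% of it, so the groups overlapped. Rfc4, a loader subunit, had 365, 590, 246 and 223 (-0.96 ± 0.33). The other 4 loader subunits, Rfc1, Rfc2, Rfc3 and Rfc5, were lower in both Prmt5sKO libraries as well, with log2 fold changes from -0.86 to -0.44. Over all genes tested, 23.7% had that order. None of the 6 genes was 2-fold lower.

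Replication protein A coats single-stranded DNA. Rpa2 had 1234, 1118, 502 and 705 (-0.99), Rpa1 had 3802, 4536, 2298 and 2291 (-0.86), and Rpa3 had 252, 344, 143 and 173 (-0.90). The 3 subunits of this fixed trimer were thus within a narrow range of each other, at 51.3% to 55.0% of control. Fen1, the flap nuclease that trims Okazaki fragments, had 188, 143, 72.1 and 84.1 (-1.10), although 2039 of its exon bases are shared with other genes. Lig1, the ligase that joins the fragments, had 2240, 3107, 1136 and 1118 (-1.23). The control libraries differed from each other in Lig1 while the Prmt5sKO libraries nearly coincided, and the groups of both genes were apart.

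Fork protection factors held the lowest log2 fold change of the 44 genes. Wdhd1 (ENSMUSG00000037572, chromosome 14, 47240944 to 47276857, GRCm38), the AND-1 protein that bridges helicase and polymerase alpha, had 1249, 1315, 317 and 350 (-1.95 ± 0.22, limma-voom adjusted p 0.194), 26.0% of control. Clspn (claspin), the checkpoint mediator that travels with the fork, had 1504, 1283, 411 and 446 (-1.70), and Timeless had 1190, 1531, 412 and 542 (-1.52). Tipin, the partner of Timeless, had 781, 733, 400 and 472 (-0.81), at 57.6% of control. Timeless and Tipin work as a pair, and in these libraries Timeless stood further from control than Tipin; that difference was not tested.

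CAF-1 deposits new histones H3 and H4 behind the fork. Chaf1b (ENSMUSG00000022945, chromosome 16, 93883901 to 93906115), its middle subunit, had 945, 1124, 254 and 300 (-1.91 ± 0.25, limma-voom adjusted p 0.194). Chaf1a, the large subunit, had 770, 1165, 274 and 252 (-1.83 ± 0.30, adjusted p 0.198 in limma-voom). The Prmt5sKO mean of each subunit was near 27% of control (26.8% for Chaf1b and 27.2% for Chaf1a). Exons of Chaf1a share 4648 bases with Ubxn6, so its counts are less certain than those of Chaf1b.

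In dNTP supply, Rrm2 (ENSMUSG00000020649, chromosome 12, 24708241 to 24714146), the regulatory subunit of ribonucleotide reductase, had 14084, 21243, 7268 and 11051 (-0.95 ± 0.32, limma-voom adjusted p 0.324). It was the most abundant of the 44 genes in every library. Its partner Rrm1 had 6033, 7740, 4480 and 4956 (-0.54) and was the nearest of the 5 supply genes to control. Tk1, the S phase thymidine kinase, had 1330, 1192, 406 and 540 (-1.44 ± 0.24). Tyms, which makes thymidylate, had 1163, 1239, 496 and 598 (-1.15), and Dut, which removes dUTP, had 1106, 1100, 369 and 619 (-1.23). All 5 were lower in both Prmt5sKO libraries, beside 23.7% of all genes tested.

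Levels between genes were compared per kilobase of exon, where the length takes in every base of any annotated exon of the gene. Which transcripts the cells made was not measured, so ranks between genes depend on the annotation. In control, the mean ran from 55.0 normalized counts per kb for Orc5 to 6374 for Rrm2, with Pcna next at 1050 and Rpa1 at 747. In Prmt5sKO it ran from 29.7 for Chaf1a to 3305 for Rrm2, with Pcna at 819. The 8854 exon bases of Chaf1a include the 4648 shared with Ubxn6. Control levels of the 6 origin recognition genes ran from 55.0 (Orc5) to 276 (Orc6). In Prmt5sKO, Orc1 was the lowest of them at 34.1 and Orc2 the highest at 248, so Orc6 passed from the top of the complex in control to the middle at 111. In each group Rrm2 stood above Rrm1 per kb, 6374 against 625 in control and 3305 against 428 in Prmt5sKO. The lengths used were 2771 bases for Rrm2 and 11012 for Rrm1, so the size of this gap depends on the annotation.

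**Figure D3:**
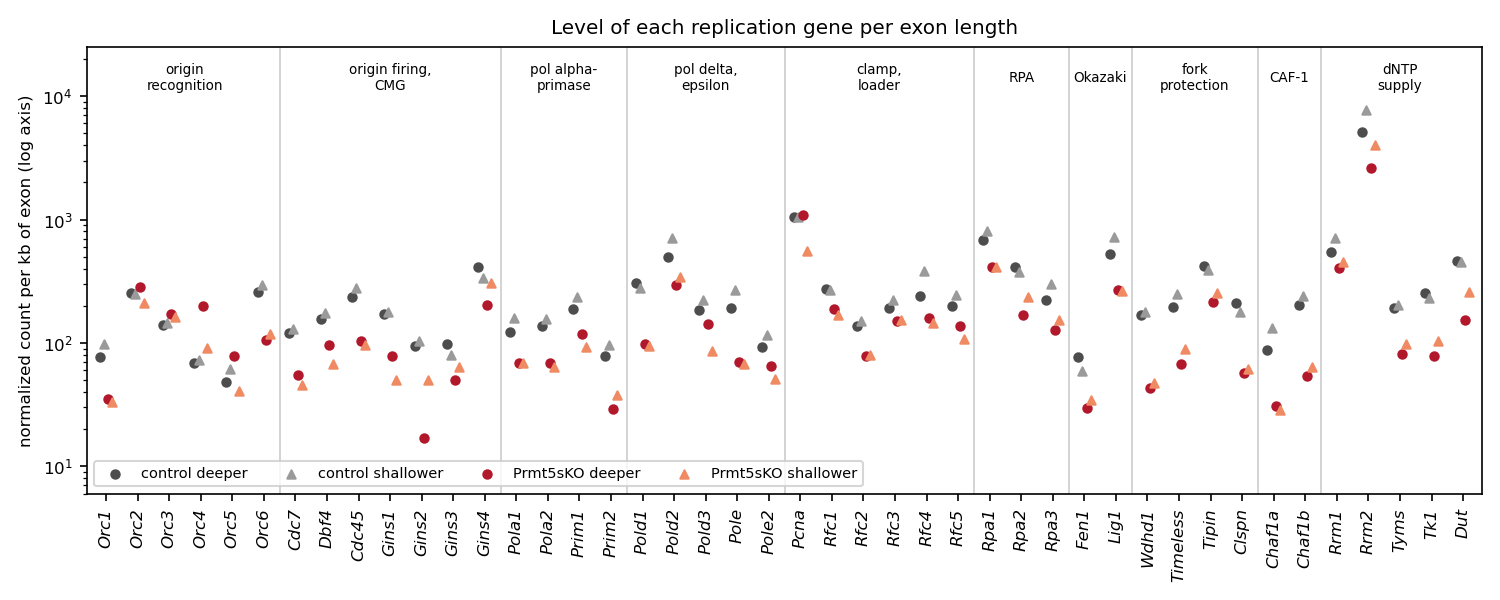
Normalized count per kb of exon (log axis) of each replication gene in the 4 libraries, grouped by role, with grey for control, red and orange for Prmt5sKO, and circles for the deeper library of a group. Rrm2 and then Pcna stand highest by the control mean (6374 and 1050), and the lowest point is Gins2 in the deeper Prmt5sKO library.

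Together the 44 genes took 0.389% of the reads in the deeper control library and 0.448% in the shallower. In Prmt5sKO the shares were 0.246% and 0.239%. The Prmt5sKO libraries thus stood close together and below both control libraries. Between the Prmt5sKO libraries, shallower minus deeper, the median log2 difference over the 44 genes was -0.01 (SD 0.48), with 23 genes lower and 21 higher in the shallower library. Between the control libraries it was 0.19 (SD 0.25). Over all genes the SDs of these differences were 1.13 and 1.11. The Prmt5sKO libraries were within 1.5-fold of each other for 36 of the 44 genes (81.8%), beside 60.8% of all genes, and the control libraries for 41 (93.2%), beside 65.0%.

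By role, all 5 dNTP supply genes were higher in the shallower library (median log2 difference 0.41), as were all 4 fork protection genes (0.19), while 5 of the 6 origin recognition genes were lower there (-0.25). Over all genes 8388 were lower and 7756 higher in the shallower library. These are single libraries, so the shifts have no replicate check, differences between roles were not tested, and with scaling by library size only the median over the 44 genes was -0.13 in place of -0.01.

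The same pair of libraries differed widely in muscle differentiation genes. The 13 markers, among them Myog, Acta1 and Myh3, summed to 50324 and 96834 in control, to 46380 in the deeper Prmt5sKO library and to 400760 in the shallower one. Ttn made up most of the sum in both control libraries and in the deeper Prmt5sKO library. Gene by gene, the median log2 difference of the 13 markers from the control mean was 0.86 in the deeper Prmt5sKO library and 4.58 in the shallower, and 12 of the 13 were lower in the shallower than in the deeper control library. All 13 were higher in the shallower than in the deeper Prmt5sKO library, by a median log2 difference of 3.59. For 10 of the 13 both Prmt5sKO libraries lay above both control libraries, beside 25.2% of all genes. The median log2 difference of the 44 replication genes from the control mean was -1.07 in the deeper Prmt5sKO library and -1.02 in the shallower. Without the shallower Prmt5sKO library the median over the 44 genes was -1.06, and without the deeper one -1.01. Cdkn1a was also higher in both Prmt5sKO libraries. The part of differentiation and of Cdkn1a in these levels was not tested.

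**Figure D4:**
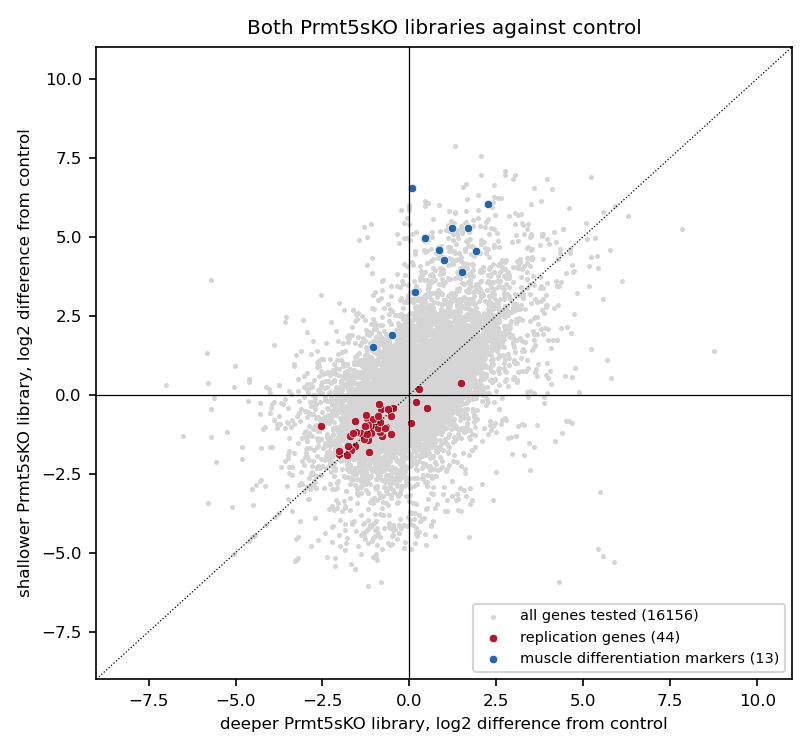
Log2 difference from the control mean in the deeper (horizontal axis) and the shallower (vertical axis) Prmt5sKO library, for the 44 replication genes (red), 13 muscle differentiation markers (blue) and all 16156 genes tested (grey), with equality dotted. Most red points lie near the line below 0 on both axes, around medians of -1.07 and -1.02, while the blue points lie above the line.

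Genes that serve the same processes but are not among the 44 were read from 3 further lists. Of their 59 genes, 45 were lower in both Prmt5sKO libraries, 3 were higher in both and 11 overlapped, with a median log2 fold change of -0.66. At an unadjusted p under 0.05, 32 were lower and 0 higher. Over all genes, 23.7% were lower and 25.2% higher in both, and 6.88% lower and 6.07% higher at that p. In limma-voom 0 of them passed the adjusted threshold.

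Of 21 other fork and origin factors, 17 were lower in both Prmt5sKO libraries, beside 23.7% of all genes, with a median of -1.01. Dscc1, of the alternative clamp loader, had 122, 180, 29.1 and 55.7 (-1.90). Exo1, an exonuclease, had 901, 886, 290 and 301 (-1.60), and Ticrr, the origin firing factor treslin, had 964, 1155, 341 and 366 (-1.58). These 3 lay in the range of the lowest of the 44 genes. Among the 17 genes without overlap, the highest log2 fold changes were those of Rnaseh2c (-0.53), Pole3 (-0.29) and Chtf8 (-0.16). The groups of Pold4, Pole4, Rmi1 and Top1 overlapped, and Pold4 had the highest of the 21 values, 0.53.

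Of 13 other chromatin factors of replication, 12 were lower in both, beside the same 23.7%, with a median of -0.75. Dek had 886, 1957, 448 and 430 (-1.57), with widely spaced control libraries. Uhrf1, which recognises hemimethylated DNA behind the fork, had 4897, 5780, 2121 and 2067 (-1.35), and Dnmt1, the methyltransferase it recruits, had 7552, 8604, 3374 and 3361 (-1.26). Both genes had close Prmt5sKO libraries well below control. Among the 12 genes without overlap, the highest log2 fold changes were those of Nap1l1 (-0.52), Asf1a (-0.32) and Rbbp7 (-0.23), a histone-binding protein. Rbbp4, whose groups overlapped, was at -0.20.

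Of 25 other nucleotide supply genes, 16 were lower in both, again beside 23.7% of all genes, 3 were higher and 6 overlapped, with a median of -0.51. Shmt1, which feeds thymidylate synthesis, had 1394, 1710, 705 and 590 (-1.25). Dctd, which makes dUMP, had 538, 568, 306 and 193 (-1.15), and Umps, of pyrimidine synthesis, had 1361, 1300, 632 and 589 (-1.12). Both Prmt5sKO libraries lay above control for 3 of the 25, beside 25.2% of all genes. Rrm2b, the p53-controlled reductase subunit, had 178, 152, 249 and 216 (0.50), opposite in direction to Rrm2. Dguok, the mitochondrial deoxyguanosine kinase, had 129, 87.0, 179 and 173 (0.72), and Tk2, the mitochondrial thymidine kinase, had 314, 159, 356 and 315 (0.56), opposite in direction to Tk1. The libraries of Tk2 nearly touched across groups, at 314 in control and 315 in Prmt5sKO, and none of these 3 had an unadjusted p under 0.05.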

How the data were processed

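Data were from 4 libraries, 2 control and 2 Prmt5sKO, of MuSC in culture, made after depletion of ribosomal RNA. The authors trimmed reads with Reaper, aligned them with STAR 2.4.0a to GRCm38 (mm10), counted them per gene with FeatureCount, leaving out reads with several positions or several genes, and normalized them with DESeq2 (given as 1.62 in the submitters' processing notes). The deposited signal values used here are group averages, made by the authors, of counts divided by size factors. The deposited fold changes and p-values are the authors' own comparison and were not used.

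In such an average a read adds a fixed step that depends only on its library, and solving for these steps gave whole read counts in each library for 100% of 20065 genes, with a relative residual of at most 1e-13 accepted and with 0 genes allowing more than 1 solution. The code was tested on simulated libraries. Counts were scaled by TMM (trims of 30% and 5%, own code), genes averaging 5 normalized counts or more were tested, and groups were compared with limma-voom (limma 3.58.1, R 4.3.3) and Benjamini-Hochberg adjustment. A call needed a 2-fold change or more and an adjusted p no higher than 0.05. Count tests other than limma-voom were not used, since the deposited columns are means. The authors' own DESeq2 comparison was not repeated, and the paper reports genes that passed a false discovery rate of 0.05 in it. Libraries within a group differed by far more than counting noise (mean chi-square per gene 88.5 in control and 157 in Prmt5sKO).

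Symbols and coordinates came from GENCODE M21, which held 19782 of the identifiers. The genes, lists and motifs were chosen with earlier results of these data known. In each role the genes with the lowest and highest log2 fold change were named, with every gene whose groups overlapped and with Pcna, Rrm2 and Chaf1b. Orc3, Orc6, Cdc7, Dbf4, Cdc45, Pola1, Pold1, Rpa3, Clspn, Timeless, Tyms and Dut were given as further examples after their values were seen. In the other lists the 3 lowest and 3 highest without overlap were named. The alternatives were other scalings, filters and weights, leaving out each library and a replicate block.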

Additional observations from a re-analysis of the deposited data

How the results depend on the processing

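With 2 libraries a group, 0 genes were called over all genes by limma-voom and also by limma-trend, and leaving out 1 library gave counts from 0 to 277, with 277 without the deeper and 54 without the shallower Prmt5sKO library. In such fits the lone library is assumed to vary like the other group. The number of the 44 replication genes lower in both Prmt5sKO libraries was 39 under every scaling. Weights and blocks do not enter this count, and filters could only remove genes from it. With a library left out, the order was read from the remaining libraries, so the count could only stay or rise. It was then 39 to 42, with 42 without the deeper Prmt5sKO library. Their median log2 fold change was -0.90 when counts were scaled by library size only, which moved the median of all genes up by 0.11, and ranged from -1.18 to -0.91 with a library left out. The number lower at an unadjusted p under 0.05 ranged from 23 to 34 with a library left out, with 23 without the shallower control library, and from 31 to 36 under all other settings. The 23.7% and 6.88% of all genes given above hold for the main setting only. Shares of all genes under the alternatives are not given. The counts of replication genes there therefore cannot be set against all genes. The median difference between the Prmt5sKO libraries was -0.13 with library size only.

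The direction of 41 of the 44 genes was the same in all 12 alternatives. Orc2 was higher in Prmt5sKO with library size only (0.083), and ranged from -0.24 without the deeper to 0.17 without the shallower Prmt5sKO library. Orc5 was lower without the deeper control library (-0.098), and ranged from -0.40 without the deeper to 0.51 without the shallower Prmt5sKO library. Pcna was at 0.036 without the shallower Prmt5sKO library and at -0.91 without the deeper. The cause was not tested.

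Since no replicate number is known for any library, both pairings were run as a replicate block. With the deeper libraries paired, 0 genes were called, and with the crossed pairing 335 of all 16156 genes tested. Of the 44 replication genes, 12 were among these 335: Cdc45, Chaf1a, Chaf1b, Clspn, Lig1, Orc6, Pola2, Pold1, Pole, Timeless, Tk1 and Wdhd1. Deviations of the libraries from their group means correlated at -0.30 across 11463 genes for the first pairing and at 0.30 for the crossed one, where genes are not independent replicates. The median over the 44 genes was -1.0 and -1.02 in these fits.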
